A study of Physcomitrium patens with 3 samples.

Results

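Nuclear loci longer than 200 and up to 1000 bp made up 2957 of the 39975 double-stranded RNA loci listed for protonemata of the moss Physcomitrium patens. They were chosen by position and length alone, as loci on scaffolds numbered under 500 whose span from first to last base is in this range. The series compared protonemata, the filaments in which moss growth starts, of rdr2, rdr6 and wild type, with 1 library each. All were 10 days old and were grown on BCD medium with 50 mM ammonium tartrate in cycles of 16 h light and 8 h dark at 22 °C, with no treatment. The labels give the genotypes by these names only, without the alleles or the number of lines or cultures. The table deposited for rdr2 is named after a different rdr gene, and the label was followed. The loci carry cluster numbers and no gene names, so neither the mutated genes nor markers of the tissue could be checked, and their place in exons, introns or between genes is not stated. A genome of the build of the loci was not used here, and no sequence is shown.

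RNA-dependent RNA polymerases copy single-stranded RNA into double-stranded RNA, which Dicer enzymes cut into small interfering RNAs. In land plants RDR2 is known for heterochromatic small RNAs at transposons and other repeats, and RDR6 for trans-acting small RNAs, which in this moss regulate development. Double-stranded RNA can also arise without such an enzyme, from inverted repeats that fold back or from overlapping transcripts of both strands. In the assay used here a nuclease that digests single strands leaves the double-stranded part of the RNA to be sequenced. The comparison of each mutant with wild type asks which loci give fewer or more such reads in the mutant library.

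With 1 library per genotype no difference below has a replicate check, and no test between genotypes was possible. Higher and lower describe these libraries only. The libraries held 9703589 reads in rdr2, 9346065 in rdr6 and 6992264 in wild type, so that 1 read equalled 0.103, 0.107 and 0.143 RPM (reads divided by the library total and scaled) in that order. The 2957 loci took 96672 reads in rdr2, which was 1.11% of the reads in all loci (95% Clopper-Pearson interval 1.10 to 1.12). They took 302197 in rdr6, or 3.74% (3.73 to 3.75), and 200438 in wild type, or 3.38% (3.37 to 3.40). The order of these shares was reversed when the 400 loci with most reads in the series were left out. Of the reads in the remaining loci, those of this range took 41.6% in rdr2, 33.6% in rdr6 and 35.4% in wild type. All intervals are 95% intervals, and none covers variation between libraries. Those of read shares and ratios cover counting error only, and reads carry no molecular identifier, so they do not count independent molecules. Intervals of detected shares and of medians describe the spread over loci, which are not replicates. In RNA of whole tissue, fewer cells with an RNA and less of it per cell cannot be told apart.

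Most of these loci gave reads in every library, and a smaller part gave none in any. At least 1 read was found at 2030 of the 2957 loci in rdr2 (68.7%, interval 66.9 to 70.3), at 2186 in rdr6 (73.9%, 72.3 to 75.5) and at 2188 in wild type (74.0%, 72.4 to 75.6). A read in all 3 libraries was found at 1956 loci (66.1%), and 633 (21.4%) had no read in any. The loci without a read had a median length of 246 bp, against 316 bp over all 2957. Over the whole series 59.5% of loci had no read, and among nuclear loci of the same scaffolds the share was 67.3% at 30 bp or less, 46.9% at 31 to 200 bp and 2.04% above 1000 bp.

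Detection in a single genotype was rare and shallow. Reads in wild type alone were found at 90 loci, with at most 15 reads each. Reads in rdr6 alone were found at 78 loci, with at most 6, and reads in rdr2 alone at 32 loci, with at most 2. No locus that lacked a wild-type read had more than 15 reads in all. The pattern with reads in rdr6 and wild type but none in rdr2 was seen at 126 loci, of which 11 had 20 or more reads.

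The lower share detected in rdr2 depended on how depth was counted. After thinning every library to the smallest library total, the expected shares were 66.3% in rdr2, 72.5% in rdr6 and 74.0% in wild type. A few loci held nearly all reads of the series: the 400 loci with most reads took 99.1% of locus reads in rdr2, 97.3% in rdr6 and 97.5% in wild type. After thinning to the smallest number of reads outside these 400 loci, the expected shares were 68.7%, 68.6% and 70.1%.

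Longer loci were detected more often. Among the 1358 loci of up to 300 bp, 55.9% had a read in rdr2, 62.2% in rdr6 and 62.7% in wild type. The shares were 74.4%, 79.9% and 79.5% among the 966 loci above 300 and up to 500 bp, and 87.2%, 90.05% and 89.9% among the 633 loci above 500 bp. The limits of the class fell among loci with few reads: 20 of the 40 shortest loci and 12 of the 25 loci of 200 bp, just outside, had no read in any library. The shortest locus with most reads, Cluster_32521, had 333 reads in rdr2, 3918 in rdr6 and 1488 in wild type, and Cluster_32522, 1 bp shorter and 3.525 kb away, had 787, 9074 and 3309. The only locus of 1000 bp, Cluster_16754, had 99 reads over the 3 libraries, and the only one that was 1 bp longer, Cluster_36079, had 2.

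**Figure D1:**
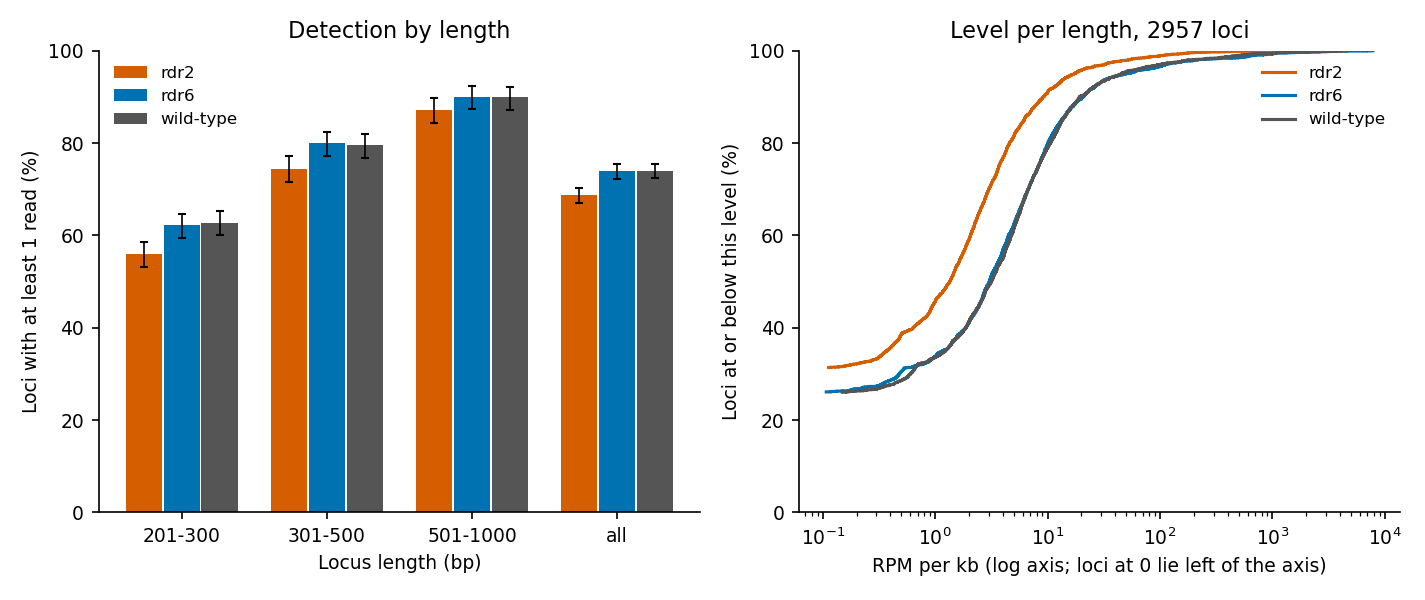
Left, percentage of the nuclear loci with at least 1 read in the rdr2, rdr6 and wild-type libraries, by length in bp. Error bars are exact 95% intervals from the number of loci and do not cover variation between libraries. Right, cumulative percentage of the 2957 loci against RPM per kb on a log axis. Detection was lowest in rdr2 in each length bin (55.9% to 87.2%), and the curve of rdr2 lay left of those of rdr6 and wild type, which nearly coincided.

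Per length, median levels on the RPM scale were close in rdr6 and wild type and lower in rdr2, a difference that depended on the scaling, as given with the comparison of rdr2. Levels are given for the 1595 loci with 20 or more reads summed over the 3 libraries, called examined loci here. They were 42.4% of the 3763 examined loci of the series. Another 729 loci had 1 to 19 reads, and 35 of them stood just under the minimum at 19 reads. The median level of the examined loci was 3.45 RPM per kb in rdr2 (interval of the median 3.21 to 3.62), 7.58 in rdr6 (7.18 to 8.11) and 7.56 in wild type (7.15 to 8.08). The intervals of rdr6 and wild type overlapped, and that of rdr2 lay below both. Such intervals describe the loci of these libraries and are no test between genotypes. The middle 80% of loci ran from 1.02 to 15.8 RPM per kb in rdr2, from 2.73 to 42.3 in rdr6 and from 2.80 to 41.1 in wild type. Over all 2957 loci, with those at 0 included, the medians were 1.35, 3.03 and 3.16 RPM per kb.

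Among examined loci the shortest had the highest median level, but the read minimum sets a higher level per kb for shorter loci. Without the minimum the order turned. The median over all loci of up to 300 bp was 0.473 RPM per kb in rdr2, 1.55 in rdr6 and 1.47 in wild type. Over all loci above 500 bp it was 2.62, 5.59 and 5.75. Pooled over loci, the shortest had most in rdr6 and wild type, with 43.7 and 33.4 RPM per kb up to 300 bp and 20.1 and 21.0 above 500 bp. In rdr2 the pooled levels of these bins were 9.40 and 9.32 RPM per kb.

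A small number of loci carried the pooled reads. The 12 loci with most reads held 45.6% of the reads of the class in rdr2, 40.6% in rdr6 and 42.7% in wild type. Cluster_34998 (scaffold_334, 28433 to 29180) had the most, with 15873 reads in rdr2, 18430 in rdr6 and 14387 in wild type. That equalled 2187, 2636 and 2751 RPM per kb, so the genotypes lay close together. Its 1 neighbour within 10 kb had 225848 reads in rdr2, 64400 in rdr6 and 61755 in wild type. Cluster_37711 (scaffold_430, 8706 to 9168) had 8510, 11146 and 8150 reads. Cluster_6613 (scaffold_23, 1415213 to 1415465) and Cluster_28819 (scaffold_214, 745652 to 745944) had 6006, 8367 and 5272 and 5582, 8425 and 7538 reads, in the same order of libraries. In rdr2 these 4 loci were between 1.22-fold and 1.87-fold lower than in wild type on the RPM scale, and above wild type under the 3 other scalings described with the comparison of rdr2.

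The other 4 of the 8 loci with most reads were much lower in rdr2 than in wild type. Cluster_12350 (scaffold_53, 302733 to 303457) had 1260 reads in rdr2, 11782 in rdr6 and 11197 in wild type. Cluster_29436 (scaffold_224, 497005 to 497343) had nearly the same counts on another scaffold, with 1233, 11196 and 10689. Cluster_24075 (scaffold_149, 1016535 to 1016743) had 857, 15351 and 6903 reads and Cluster_13439 (scaffold_60, 43722 to 43951) had 741, 14900 and 6479. In these 4 the rdr2 level was 12.3-fold, 12.03-fold, 11.2-fold and 12.1-fold lower than wild type. By the mean RPM per kb over the 3 libraries Cluster_24075 was the highest locus of the class, with 423 RPM per kb in rdr2, 7859 in rdr6 and 4724 in wild type. Cluster_13439 came next, with 332, 6932 and 4029 RPM per kb. Cluster_6613, Cluster_28819 and Cluster_29436 followed, with 2446, 1963 and 375 RPM per kb in rdr2, 3539, 3077 and 3534 in rdr6, and 2980, 3679 and 4509 in wild type. It was not tested whether loci of similar counts are copies of 1 repeat.

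Counts in rdr2 were compared with wild type first. A locus was called when its RPM ratio was at least 4 and the exact interval lay wholly beyond 2-fold. By this rule 276 of the 1595 examined loci were lower in rdr2 and 4 were higher, which was 17.3% and 0.251% of them. The background over all 3763 examined loci of the series was 26.2% lower and 0.505% higher. The median log2 ratio was -1.26 (interval of the median -1.30 to -1.21), against -1.41 over all examined loci of the series. No examined locus lacked a wild-type read, and 11 lacked an rdr2 read.

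The size of this shift depended on the scaling. Relative to RPM, the other scalings raise every log2 ratio of rdr2 to wild type by 0.97, 1.22 or 1.37, so a locus less than 2.58-fold lower in rdr2 on the RPM scale turns under at least 1 of them. All folds are on the RPM scale unless another is named. With TMM factors (trimmed mean of M-values) 68 loci were lower and 17 higher, against a background of 9.25% and 1.97% over the series. Median-of-ratios size factors gave 44 and 29, against 6.94% and 2.82%. Scaling to the reads outside the 400 loci with most reads gave 35 and 37, against 5.77% and 3.45%, and a median of 0.11 in place of -1.26. The 35 loci were called lower under all 4 scalings, and the 4 higher on the RPM scale were called higher under all 4. Each scaling moves all loci alike, so the 35 are those called lower under the largest shift. Upward shifts could not remove the 4. With a laxer rule, a ratio of at least 2 and an interval beyond 1, 821 loci were lower and 20 higher on the RPM scale, against 55.5% and 2.1% over the series.

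The difference in rdr2 was deepest at loci with many reads. Read classes were chosen after the values were seen and use the sum over the 3 libraries. Of the 76 loci with 1000 or more reads, 51 were called lower in rdr2 and none higher. Of these 76, 26 were at least 8-fold lower, 25 between 4-fold and 8-fold, 14 between 2-fold and 4-fold, and 11 within 2-fold. The median log2 ratio was -2.26, against -1.17 at the 704 loci with at least 50 and under 200 reads and -1.21 at the 603 loci with 20 to 49. Scaled to the reads outside the 400 largest loci, the 3 medians were -0.90, 0.20 and 0.16 in the same order. By this scaling 18 of the 76 were lower (23.7%), against 43 of 254 loci with 1000 or more reads outside the class (16.9%). The share called lower on the RPM scale was 8.29%, 15.5%, 31.1% and 67.1% of the class from the lowest to the highest of 4 read classes, which start at 20, 50, 200 and 1000 reads. Outside the class the shares were 16.4%, 37.6%, 51.6% and 44.5%, so only the highest read class had a larger share within it. Intervals narrow with more reads, so the rule itself lets the share called rise at an equal ratio. Within the class the median log2 ratios of the 4 read classes were -1.21, -1.17, -1.53 and -2.26, from the lowest to the highest. Outside the class they were -1.36, -1.65, -2.04 and -1.85, so lower medians at 200 or more reads were not particular to it. No test of the difference between the classes of loci was run.

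**Figure D2:**
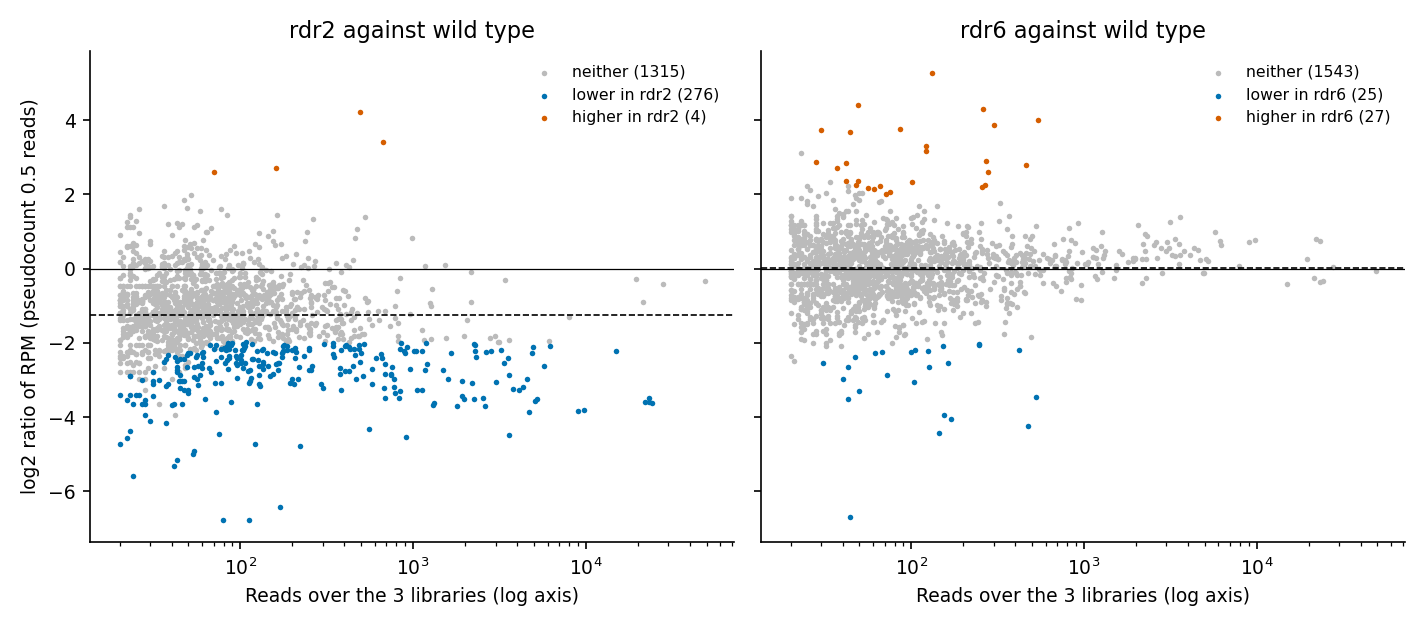
Log2 ratio of RPM, with a pseudocount of 0.5 reads, against reads summed over the 3 libraries (log axis), for the 1595 examined loci, in rdr2 against wild type (left) and rdr6 against wild type (right). The dashed line is the median, at -1.26 and 0.02. In rdr2 the loci with 1000 or more reads lie mostly below the median, whereas in rdr6 they lie near 0.

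Of the 76 abundant loci, 18 were lower in rdr2 under all 4 scalings, a choice that by itself sets a deep difference. Their length was 209 to 725 bp with a median of 242.5 bp, and 14 of them were at most 300 bp long, against 24 of the other 58 abundant loci. They stood on 14 scaffolds, and 16 had fewer than 20 reads in loci within 10 kb, against 31 of the other 58. In rdr2 they were between 10.9-fold and 22.7-fold lower than wild type. In rdr6 they were at 0.784 to 1.72 of the wild-type level, with 16 of 18 above it. Of all 76 abundant loci 61 were above wild type in rdr6, so this is not particular to the 18. Together they held 5967 reads in rdr2, 86751 in rdr6 and 53035 in wild type, which was 6.17%, 28.7% and 26.5% of the reads of the class.

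Some of these loci came in pairs of equal length. Cluster_24075 and Cluster_24076 (scaffold_149, 1044902 to 1045110) are both 209 bp long and lie 28.2 kb apart. Cluster_24076 had 290 reads in rdr2, 6588 in rdr6 and 2919 in wild type, which was 0.338, 0.429 and 0.423 of the reads of Cluster_24075. Cluster_32120 (scaffold_268, 550555 to 550812) and Cluster_32121 (scaffold_268, 593230 to 593487) are both 258 bp long. They had 50 and 50 reads in rdr2, 799 and 830 in rdr6, and 462 and 449 in wild type. In both pairs rdr6 was highest and rdr2 lowest. The low rdr2 level was set by the choice of the 18 loci, and 16 of the 18 were above wild type in rdr6. This order is therefore no sign of likeness within a pair. The last pair was picked after its values were seen.

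By the interval bound nearest to 1, the lowest loci in rdr2 included both sparse and abundant ones. Cluster_17996 (scaffold_91, 275187 to 275516) had 2 reads in rdr2, 12 in rdr6 and 155 in wild type, so both mutants lay far below wild type. Cluster_27597 (scaffold_197, 312641 to 312884) had 69, 2372 and 1127 reads, 22.7-fold lower in rdr2 (17.8 to 29.3). Cluster_1336 (scaffold_4, 873115 to 873326) had 21, 534 and 359 reads, 23.7-fold lower (15.3 to 38.8). At Cluster_27597 and Cluster_1336 the rdr6 library lay above wild type.

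Among the sparse ones, no rdr2 read was found at Cluster_5958 (scaffold_20, 2482204 to 2482969), with 73 reads in rdr6 and 39 in wild type, or at Cluster_6217 (scaffold_22, 54393 to 54630), with 40 and 39. Taking 3 rdr2 reads as the floor, each was at least 18.0-fold lower than wild type, and the exact interval for 0 reads starts at 14.0-fold. Cluster_36465 (scaffold_378, 21477 to 21814) had 267 reads in rdr2, 6050 in rdr6 and 2751 in wild type. It was 14.3-fold lower (12.6 to 16.3). Cluster_27406 (scaffold_194, 182668 to 182899), with 166, 2770 and 1752 reads, was 14.6-fold lower (12.5 to 17.3), and Cluster_24076 was 14.0-fold lower (12.4 to 15.8). None of Cluster_5958, Cluster_6217, Cluster_27406, Cluster_27597 and Cluster_24076 had another locus within 10 kb.

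The 4 loci higher in rdr2 lay on separate scaffolds and had few reads in the other genotypes. Cluster_3109 (scaffold_9, 2689379 to 2689674) had 450 reads in rdr2, 24 in rdr6 and 17 in wild type. Cluster_26830 (scaffold_185, 722019 to 722299) had 556, 79 and 37. Cluster_8391 (scaffold_32, 933247 to 933469) had 123, 24 and 13. Cluster_10334 (scaffold_41, 1686886 to 1687320), 435 bp long, had 54, 10 and 6 and was 6.48-fold higher than wild type (2.79 to 18.4). At each of the 4 the rdr6 level was within 2-fold of wild type. Their neighbours within 10 kb had 5, 104, 0 and 23 reads in rdr2 and 10, 159, 1 and 5 in wild type. Nearby loci thus did not share the difference at Cluster_3109 and Cluster_26830, and those near Cluster_8391 had too few reads to tell. Near Cluster_10334 they were also higher in rdr2, 3.31-fold (1.23 to 11.2).

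The rdr6 library was then compared with the same wild-type library. Few loci differed, in both directions and with few reads each, and the other scalings lower every log2 ratio by at most 0.12. By the size rule 25 of 1595 loci were lower in rdr6 and 27 higher, which was 1.57% and 1.69%. The background over the examined loci of the series was 1.51% lower and 1.54% higher, so the class stood near it. The median log2 ratio was 0.02 (-0.04 to 0.07). TMM factors gave 27 and 23, against 1.7% and 1.33% over the series, size factors gave 26 and 27, against 1.65% and 1.49%, and reads outside the 400 largest loci gave 27 and 25, against 1.7% and 1.41%. Of the 25 and 27, 25 and 23 were called under all 4, and downward shifts could not remove the 25. The laxer rule gave 142 lower and 113 higher, against 7.57% and 8.03%. None of the 76 loci with 1000 or more reads was called in either direction. At a background of 1.51% and 1.54% few calls are due among 76 loci, so this is not read as a trait of them.

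The loci lower in rdr6 had between 0 and 57 reads in rdr6 (median 9) and between 19 and 197 in wild type (median 45). In rdr2 they had between 1 and 401 reads (median 35). Cluster_16760 (scaffold_82, 31723 to 32373) had 8 reads in rdr6, 348 in rdr2 and 119 in wild type. Cluster_16761 (scaffold_82, 38134 to 38664) had 13 in rdr6, 401 in rdr2 and 110 in wild type. At both, rdr6 was lowest and rdr2 highest, and the levels per kb were 1.31 and 2.62 RPM in rdr6, 55.1 and 77.8 in rdr2, and 26.1 and 29.6 in wild type. Cluster_16762, also within 10 kb of them (scaffold_82, 39535 to 40098), had 4, 15 and 13 reads in the same order and was not called.

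On scaffold_210 a similar order was seen. Cluster_28556 (802642 to 802977) had 3 reads in rdr6, 112 in rdr2 and 40 in wild type, a 17.8-fold lower level in rdr6 than wild type (5.68 to 90.1). Cluster_28557 (803526 to 803986) had 2, 103 and 40, and Cluster_28553 (800103 to 800521) had 7, 123 and 32. The locus before them, Cluster_28552, (793753 to 794306), stood 5796 bp away, had 2, 6 and 5 reads and was under the read minimum.

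The other loci named as lower in rdr6 had fewer reads in rdr2 than in wild type. Cluster_9551 (scaffold_37, 2031080 to 2031359) had 0 reads in rdr6, 6 in rdr2 and 38 in wild type. Cluster_11547 (scaffold_48, 626488 to 626930) had 4, 1 and 38, so that rdr6 was 12.7-fold lower (4.57 to 48.98). The 7 loci within 10 kb of it had 2103 reads in rdr6, 773 in rdr2 and 971 in wild type, so they did not share its low level in rdr6. Cluster_14443 (scaffold_66, 839941 to 840671) had 9, 35 and 59 reads, so that rdr6 was 8.76-fold lower (4.32 to 20.1). In rdr2 it was 2.34-fold lower, not called, and that direction turns when scaled to the reads outside the 400 largest loci. Its 8 neighbours together had 20, 12 and 47 reads.

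The loci higher in rdr6 had between 24 and 500 reads in rdr6 (median 58), between 0 and 89 in rdr2 (median 6) and between 1 and 36 in wild type (median 7). Cluster_28751 (scaffold_213, 573415 to 573805) had 500 reads in rdr6, 17 in rdr2 and 23 in wild type, and Cluster_28752 (scaffold_213, 574256 to 574485) had 247, 5 and 9. Cluster_12827 (scaffold_55, 1810616 to 1810954) had 280, 9 and 14, which put rdr6 15.0-fold above wild type (8.77 to 27.7). Its neighbour Cluster_12828 (scaffold_55, 1811280 to 1811486) had 81, 1 and 4, 15.2-fold higher (5.69 to 56.9). At all 4 loci rdr6 stood apart, while rdr2 had the lowest RPM. By the reads outside the 400 largest loci, rdr2 lies above wild type at Cluster_28751, Cluster_28752 and Cluster_12827, where it was 1.88-fold, 2.50-fold and 2.16-fold lower by RPM.

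The remaining loci named by the bound nearest to 1 were less deeply sequenced or less extreme. Cluster_22924 (scaffold_136, 466699 to 467218) had 128 reads in rdr6 and 2 in each of rdr2 and wild type. Cluster_31487 (scaffold_257, 437713 to 437972) had 42, 6 and 1, so its ratio of 31.4 rests on 1 wild-type read and its interval ran from 5.34 to 1270. Cluster_10811 (scaffold_44, 777826 to 778537) had 337, 89 and 36, with rdr6 7.004-fold above wild type (4.96 to 10.2). Cluster_70 (scaffold_1, 1026513 to 1026749) had 98, 16 and 7 and was 10.5-fold above it (4.90 to 26.7). At these last 3 loci rdr2 also lay above wild type.

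**Figure D3:**
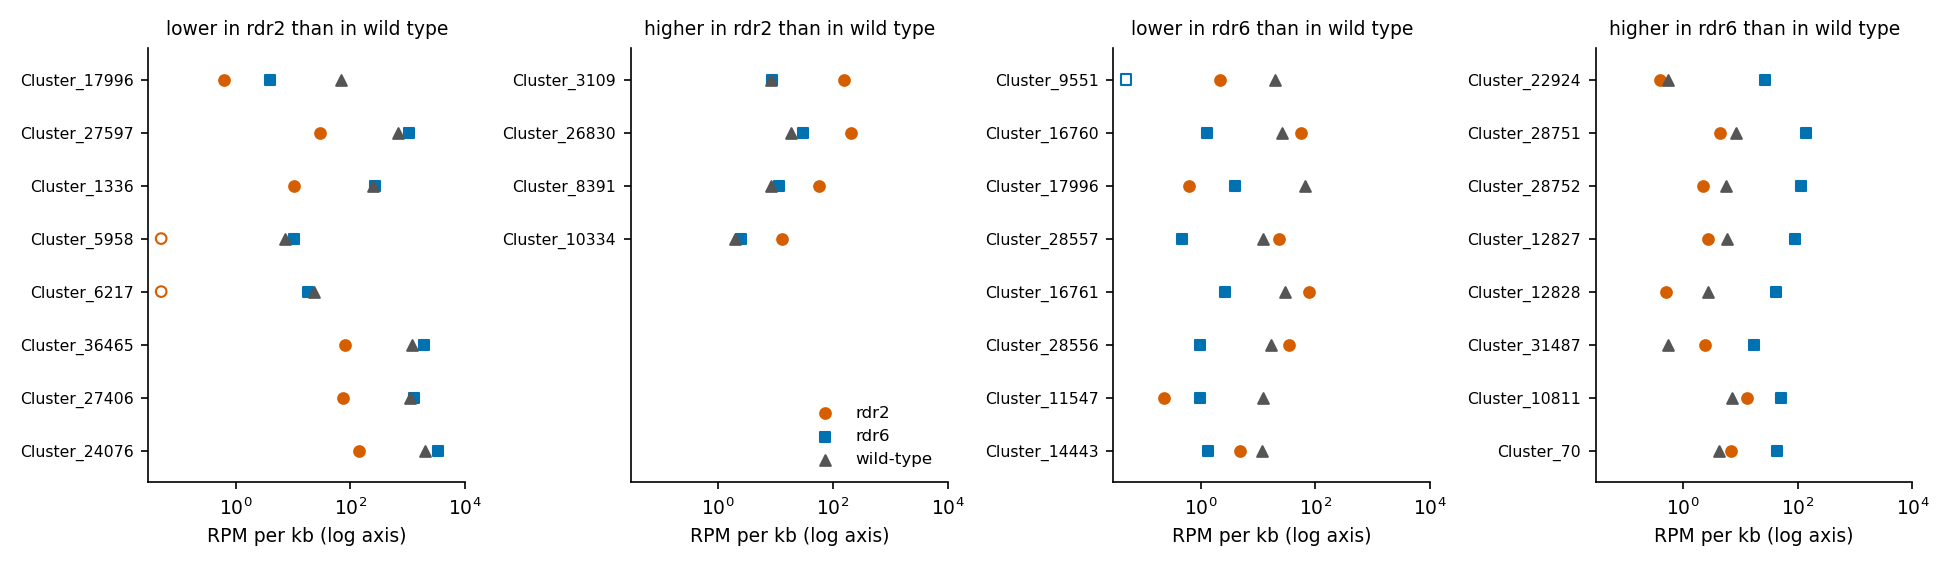
RPM per kb (log axis) in rdr2 (circles), rdr6 (squares) and wild type (triangles) of the loci with the interval bound farthest from 1, up to 8 in each direction. Open symbols at the left edge stand for no read. Among the loci lower in rdr2, rdr6 lies near or above wild type except at Cluster_17996. Among those lower in rdr6, rdr2 lies above wild type at Cluster_16760, Cluster_16761, Cluster_28556 and Cluster_28557.

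The mutants were also set against each other, without the wild-type library. By the size rule 357 of the 1595 loci (22.4%) had more in rdr6 and 16 (1.00%) had less, against a background of 31.6% and 1.01% over the series. The counts were 96 and 60 with TMM factors, against 12.5% and 3.96%, 72 and 72 with size factors, against 10.1% and 4.7%, and 53 and 90 with reads outside the 400 largest loci, against 8% and 5.71%. The direction of this split thus depended on the scaling. The laxer rule gave 850 and 58, against 57.9% and 3.72%. Cluster_21682 (scaffold_123, 1226300 to 1226715) had 113 reads in rdr6, 0 in rdr2 and 9 in wild type. With 3 rdr2 reads as the floor, rdr6 was at least 39.1-fold higher. Cluster_27597 was 35.7-fold higher in rdr6 than in rdr2 (28.1 to 46.0) and Cluster_28752 was 51.3-fold higher (21.7 to 159). Cluster_16760, Cluster_28557 and Cluster_16761 had the lowest interval bounds, with rdr6 lower than rdr2 by factors of 41.9, 49.6 and 29.7.

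Loci of the class rarely stood alone. Another locus of any length lay within 1 kb of 2376 of the 2957 (80.4%) and within 10 kb of 2806 (94.9%). The median gap to the nearest locus was 372 bp. It was 1793 bp for nuclear loci of 30 bp or less, 512 bp for those of 31 to 200 bp and 309 bp for those over 1000 bp. Gaps at these loci were seldom short: the smallest was 123 bp, 5 were under 200 bp, and 1051 were between 200 and 300 bp. The way the list of loci was made is not stated, and its part in this spacing was not tested. The nearest locus was itself of the class in 26.6% of cases, whereas such loci were 7.67% of nuclear loci on these scaffolds. This is not particular to the class, since loci above 1000 bp had one of these loci nearest in 33.0% of cases.

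Loci with and without reads had different neighbours. Of the loci within 10 kb of the 633 loci without a read, 19.7% had a read in any library. The share was 52.4% around the 729 loci with 1 to 19 reads and 80.1% around the 1595 examined loci. Loci without a read had more neighbours, with a median of 5 loci within 10 kb against 3 around examined loci. Their nearest locus was 30 bp or shorter in 58.1% of cases, against 30.2% for examined loci.

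Ratios of rdr6 to wild type correlated more between close neighbours than between distant ones. Among 335 pairs of consecutive examined loci with a gap of up to 1 kb, the log2 ratios of rdr6 to wild type had a Pearson r of 0.67 and a Spearman rho of 0.52. The values were 0.50 and 0.30 in 140 pairs with gaps over 1 and up to 10 kb, 0.13 and 0.18 in 207 pairs over 10 and up to 100 kb, and -0.01 and 0.06 in 237 pairs farther apart. The median absolute difference of the log2 ratios in a pair was 0.55, 0.63, 0.60 and 0.65 from the closest to the farthest pairs, so typical pairs differed about as much at each gap. For rdr2 to wild type the correlations were 0.23 and 0.22, 0.25 and 0.30, 0.26 and 0.26, and 0.07 and 0.03. Both loci of a pair share libraries and scaling, so these coefficients describe the pairs and have no p-value.

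Pairs with both loci called lay within 10 kb in rdr6, whereas in rdr2 they were found at every gap. In rdr6 against wild type, both loci were higher in 7 of the pairs up to 1 kb and both lower in 2, while 13 had 1 called locus. Pairs over 1 and up to 10 kb had both called in 4 cases (2 higher, 2 lower) and 1 called in 6. No pair with a gap over 10 kb had both called, but few had any, with 6 pairs up to 100 kb and 9 farther apart. In rdr2 both loci were lower in 10 of 335, 14 of 140, 17 of 207 and 8 of 237 pairs from the closest to the farthest. In the same order, 1 locus was called in 65, 27, 54 and 64 pairs. Reads of all loci within 10 kb, the called locus left out, were 20 or more at 25 of the 27 loci higher in rdr6, and these reads were above wild type in 24. Around the loci lower in rdr6 they were below wild type in 18 of 19. The median log2 ratio of the neighbours was 2.44 around the higher and -1.51 around the lower loci, against -0.04 around all 1105 examined loci with enough reads nearby. In rdr2 the neighbours of the 152 called lower loci with enough reads nearby had a median of -1.66, against -1.18 around 1031 examined loci. They were below wild type around 149 of the 152. This is on the RPM scale, where 1424 of the 1595 examined loci were themselves below wild type in rdr2. The other scalings raise these log2 ratios by 0.97 to 1.37. Neighbours can be called loci themselves, so these values are not independent.

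**Figure D4:**
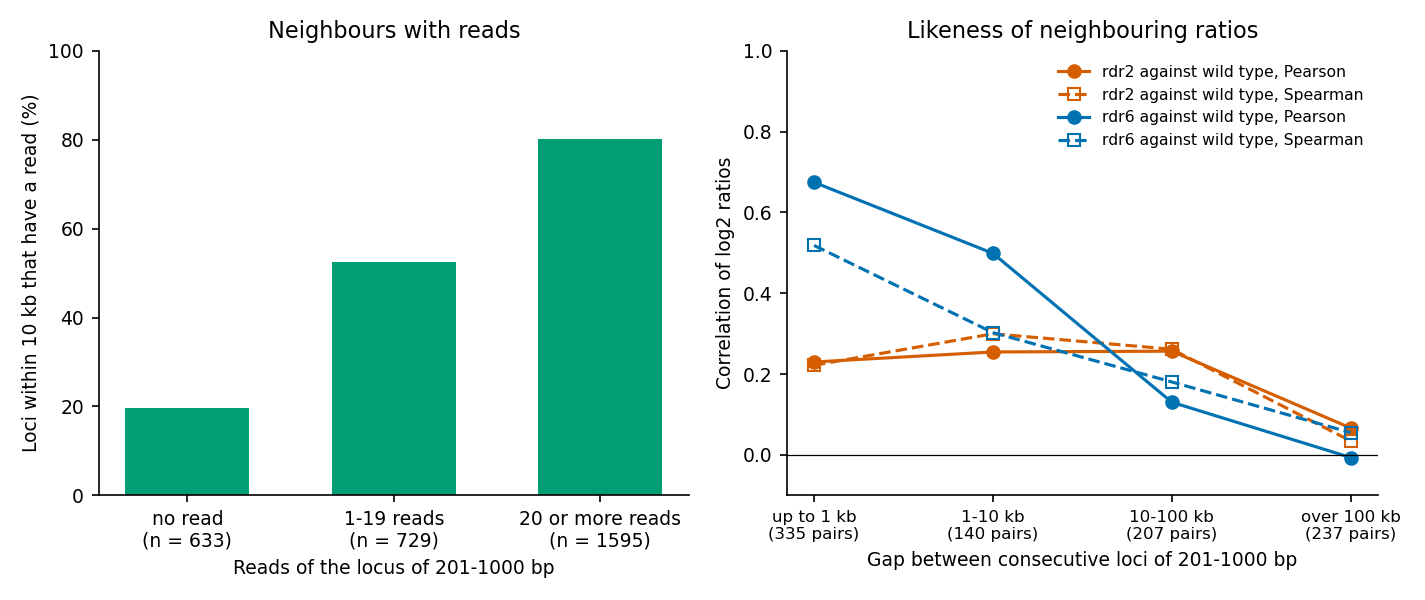
Left, percentage of loci within 10 kb that had a read in any library, around loci of the class with no read, 1 to 19 reads and 20 or more reads. Right, correlation of log2 ratios between consecutive examined loci by the gap between them, for rdr2 and rdr6 against wild type (circles Pearson, squares Spearman). The share is 19.7% around loci with no read and 80.1% around those with 20 or more, and the correlation in rdr6 is 0.67 by Pearson for gaps up to 1 kb and -0.01 for gaps over 100 kb.

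Of the 2957 loci, 1551 lay in runs of 2 to 12 loci of this class no more than 10 kb apart, and 1406 were single. The longest runs differed in whether they gave reads at all. The run on scaffold_212 (253385 to 264199) held 12 loci, all examined, with 566 reads in rdr2, 463 in rdr6 and 778 in wild type. Both mutants lay below wild type as a whole, 1.91-fold in rdr2 (1.71 to 2.13), less than the scalings shift rdr2, and 2.25-fold in rdr6 (2.00 to 2.53), and none of its loci was called. The run on scaffold_328 (231010 to 254812) also held 12 loci, among 30 loci in 23.8 kb, and had 0 reads in rdr2, 0 in rdr6 and 1 in wild type. Runs of 11 loci on scaffold_250 (443419 to 464372) and scaffold_33 (2026025 to 2045795) had 5, 12 and 18 and 0, 12 and 8 reads. The run of 9 loci on scaffold_422 (106426 to 119334) had 165, 358 and 192.

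The runs with most called loci were picked for their calls, so their shared direction is no finding. Of the 276 loci lower in rdr2, 49 shared a run with another. On scaffold_472 (146626 to 150054) all 4 loci were lower in rdr2, with 45, 21, 8 and 27 reads in rdr2, 419, 132, 56 and 163 in rdr6, and 369, 79, 39 and 190 in wild type. Together they were 9.30-fold lower in rdr2 than in wild type (7.54 to 11.6). With TMM factors, size factors and the reads outside the 400 largest loci, 2, 2 and 1 of the 4 remained called. On scaffold_352 (319663 to 322594) 3 of 4 loci were lower in rdr2, and the fourth, Cluster_35695, had 8 reads in all. Pairs on scaffold_181 (844249 to 850404) and scaffold_376 (366919 to 375813) were 8.92-fold (7.93 to 10.1) and 7.27-fold lower in rdr2 (6.46 to 8.21), and above wild type in rdr6. Under the same scalings 1, 1 and 1 of the 3 on scaffold_352, 2, 0 and 0 of the pair on scaffold_181, and 1, 0 and 0 of that on scaffold_376 were called. All 4 loci on scaffold_257 (437019 to 438963) were higher in rdr6, with 229, 42, 45 and 58 reads in rdr6, 22, 6, 4 and 7 in rdr2, and 28, 1, 7 and 10 in wild type. On scaffold_55 (1810616 to 1812602) all 3 were higher in rdr6, with 402 reads in rdr6, 11 in rdr2 and 24 in wild type. TMM factors left 3 of the 4 and 2 of the 3, and the other scalings left all.

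**Figure D5:**
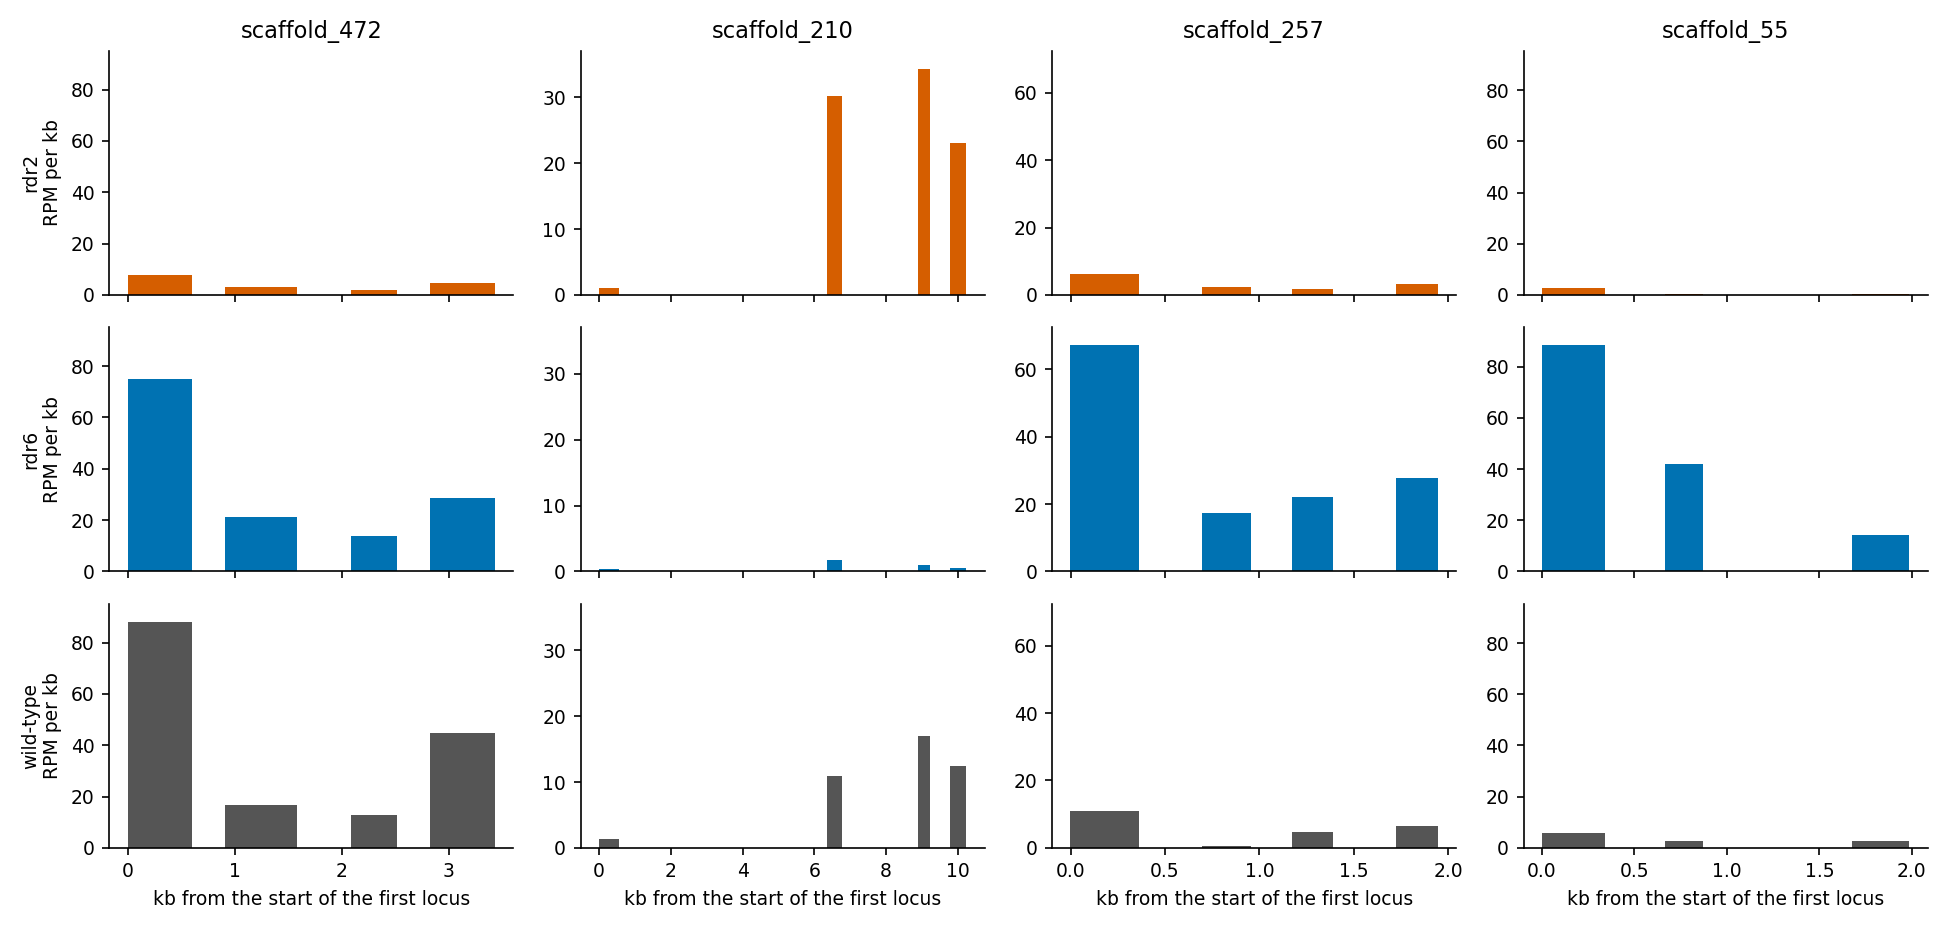
RPM per kb of each locus of the class in 4 runs, against distance in kb from the start of the first locus, in rdr2 (top), rdr6 (middle) and wild type (bottom). Bar width is locus length, and the vertical scale is shared within a column. On scaffold_472 the rdr2 bars are lowest. On scaffold_210 the rdr6 bars are lowest, and the rdr2 bars are highest at the 3 called loci but not at the first. On scaffold_257 and scaffold_55 the rdr6 bars are highest.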

How the data were processed

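Per the labels' protocols, total RNA was depleted of ribosomal RNA, digested with RNase One and made into Illumina small RNA libraries. Bowtie 0.12.9 and SAMtools are the tools named, per the submitters' processing notes. Not given in the sources used here were the genome build, how loci were found, and what was done with reads that match several places. Each table deposited by the authors gives a raw count and an RPM value per locus, per the file headers. Library totals were recovered as the count divided by the RPM at the locus with most reads. RPM times the total, rounded, gave back the count at 100% of loci in each library, so no separate count from RPM was used. No count test was run, as no genotype has a second library.

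Each ratio is one RPM over another, with an interval from the exact Clopper-Pearson limits, and medians have order-statistic intervals. Log2 ratios have a pseudocount of 0.5 reads. Gaps count the bases between locus ends. Loci were named by rule: the 8 with most reads, the 5 highest per kb, up to 8 called loci per direction for each mutant against wild type and 3 for rdr6 against rdr2 by the bound nearest to 1, and the runs of most loci or most calls. The members, lists and rules were chosen with earlier results of these data known. No gene list could be filled, as loci have no gene names. A gene table of another assembly was not used. The code was tested on simulated counts. Python 3.11.15, numpy 2.4.6, scipy 1.17.1, pandas 2.3.3, matplotlib 3.10.9 and edgeR 4.0.16 (TMM factors) were used.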

Additional observations from a re-analysis of the deposited data

How the results depend on the processing

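Of 98 values recomputed under other settings, 48 stayed the same, 47 moved and 3 were reversed. A change of sign was counted as reversed only where the interval of the main value left out 0. Sign changes in the median of rdr6 against wild type, whose interval holds 0, are therefore counted among the others. The cause was not tested except where a setting by its construction admits more or fewer loci. For rdr2 against wild type, scaling by TMM, by median-of-ratios size factors or by reads outside the top 1% gave 68, 44 and 35 lower loci in place of 276, and 17, 29 and 37 higher in place of 4. The medians were -0.29, -0.035 and 0.11 in place of -1.26. For rdr6 against rdr2 they gave 60, 72 and 90 lower in place of 16, 96, 72 and 53 higher in place of 357, and medians of 0.16, -0.0087 and -0.22 in place of 1.24. The median of rdr6 against wild type was -0.095 with TMM factors, -0.070 with reads outside the top 1% and -0.054 with no read minimum beyond 1. The laxer call, a ratio of 2 with an interval beyond 1, admits more loci: 821 lower and 20 higher for rdr2, 142 and 113 for rdr6, each against wild type, and 58 lower and 850 higher for rdr6 against rdr2. Detection at 3 reads was 57.3% in rdr2, 67.0% in rdr6 and 64.6% in wild type. Thinned to the smallest library total it was 66.3% in rdr2, and thinned to the smallest total outside the top 1% it was 68.6% in rdr6 and 70.1% in wild type. Median RPM per kb with minimums of 10, 50 and 1 read was 2.79, 5.20 and 2.11 in rdr2, 6.19, 11.6 and 4.69 in rdr6, and 6.27, 12.2 and 4.91 in wild type. Loci with a neighbour were 80.4%, 90.9% and 98.2% at 1, 5 and 20 kb, and 80.0% when only neighbours with a read count. Leaving out the 12 or the 100 loci with most reads, settings chosen after seeing the data, gave pooled ratios of 0.330 and 0.454 for rdr2 to wild type, in place of 0.348, and 1.17 and 1.01 for rdr6, in place of 1.13. The loci named by rule for a call in a comparison kept that call under the 3 other scalings, which were added after seeing the data, whereas not all loci of the runs lower in rdr2 did. A scaling shifts every locus of a comparison alike, so a call in the direction of the shift could not be lost. The loci named against the shift were chosen for interval bounds far from 1, beyond the reach of these shifts. That they kept their calls was therefore set by the naming. No paired analysis was possible because each genotype has 1 library. With about 0.1 RPM to a read, a ratio at a locus near 20 reads has a wide interval.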
